A study of Mus musculus with 30 samples.

Results

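The forkhead (Fox) transcription factors were taken as every gene whose symbol is Fox, a letter from a to s and a number. They are 44 of the 38720 gene symbols listed in each of the deposited expression tables, and all 44 matched a RefSeq gene. Another 3 symbols that begin with Fox, Foxred1, Foxred2 and Foxl2os, are not forkhead genes and were left out. Forkhead proteins bind DNA through a shared winged-helix domain and act as activators, repressors or factors that open chromatin. In the developing retina they divide the work: Foxn4 acts in progenitors that form amacrine and horizontal cells, Foxd1 marks the temporal side, Foxm1 drives genes of the late cell cycle, and Foxp factors mark subsets of neurons.

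RNA came from retinas of newborn pups (postnatal day 0), split with magnetic beads against CD90, the Thy1 protein on the surface of retinal ganglion cells (RGCs). Bound cells are the RGC fraction and the remaining retinal cells were pooled as the non-RGC fraction. The tables hold 3 groups of 3 libraries each: mutant non-RGC, mutant RGC and wild type (WT) RGC. The labels give 2 mutant genotypes, Math5Cre; Ezh2f/f and Math5Cre; Ezh2f/fG9af/+, and the tables write only "mut", so the sources used here do not give which of them was used. Math5 (Atoh7) drives the Cre in the lineage that makes ganglion cells, so cells outside that lineage are not targeted. WT mice are labelled C57BL/6 with no Cre or floxed allele, and the labels name no animal or pool behind a library, so p-values measure the spread between libraries.

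The 9 libraries held between 10559040 and 12269290 assigned reads. Levels below are normalised counts, read counts divided by a size factor common to the 9 libraries, and they are not corrected for transcript length, so they are compared between libraries and never between genes. Libraries are numbered within a group by falling size factor and carry no sample number. Ezh2, the targeted gene, was at 2233, 2159 and 2331 in mutant non-RGC libraries, 1962, 1863 and 1812 in mutant RGCs and 1154, 1169 and 1576 in WT RGCs, so its total RNA was higher in both groups labelled mutant, with the deleted exons not resolved. A list of 30 ganglion cell markers included Thy1, the target of the beads, and none was at 0 throughout. Their summed level was 15396 to 24872 in mutant non-RGC libraries, 36525 to 57501 in mutant RGCs and 71256 to 86028 in WT RGCs. The sum of 28 proliferation markers, Ezh2 among them, ran the other way. It was 43759 to 46064 in mutant non-RGC libraries, 36695 to 39082 in mutant RGCs and 19407 to 30829 in WT RGCs. In WT RGCs it was 30829 in library 3 against 19407 in library 1 and 20656 in library 2. In bulk samples a change in the number of cells of a type and a change in RNA per cell cannot be told apart.

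Of the 44 genes, 23 reached a mean of 10 normalised counts over the 6 libraries of a comparison, the minimum for testing, and the same number was tested in each comparison. Those described here are Foxc1, Foxd1, Foxd2, Foxf2, Foxi3, Foxj1, Foxj2, Foxj3, Foxk1, Foxk2, Foxm1, Foxn2, Foxn3, Foxn4, Foxo1, Foxo3, Foxo4, Foxo6, Foxp1, Foxp2, Foxp3 and Foxp4. The other 21 are described at the end by their reads.

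Promoter sequences of genes called below are shown first, so that they can be set beside the values. RefSeq windows on GRCm38.p6 were at hand for 28 of the 44 members, 33 windows in all, because some genes have several starts. The 150 bases before each start were searched on both strands for a CCAAT box (CCAAT), an E2F string (GCGGGAA), both forms of the cell cycle homology region of late cell cycle genes (TTTGAA and TTCGAA), a forkhead string (GTAAACA), an E-box (CAGCTG), an RBPJ string (GTGGGAA) and a TATA box (TATAAA). The E2F and RBPJ strings share their last bases and cannot be the same site. Capitals mark a match, and ATTGG and TTCCCGC are the CCAAT box and the E2F string read on the opposite strand. Each line runs 5′ to 3′ toward the start.
Foxo1, chr3:52268187-52268336, plus strand: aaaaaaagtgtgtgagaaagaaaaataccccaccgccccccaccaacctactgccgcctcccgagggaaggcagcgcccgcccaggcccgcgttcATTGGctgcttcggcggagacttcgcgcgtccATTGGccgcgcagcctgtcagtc
Foxo3, chr10:42276696-42276845, minus strand: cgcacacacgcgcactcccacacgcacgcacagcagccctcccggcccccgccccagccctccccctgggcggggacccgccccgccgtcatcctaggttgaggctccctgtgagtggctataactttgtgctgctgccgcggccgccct
Foxk2, chr11:121259837-121259986, plus strand: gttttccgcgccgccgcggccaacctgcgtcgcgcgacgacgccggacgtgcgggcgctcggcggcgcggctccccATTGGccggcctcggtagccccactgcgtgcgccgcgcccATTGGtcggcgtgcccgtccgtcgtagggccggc
Foxn4, chr5:114273762-114273911, minus strand: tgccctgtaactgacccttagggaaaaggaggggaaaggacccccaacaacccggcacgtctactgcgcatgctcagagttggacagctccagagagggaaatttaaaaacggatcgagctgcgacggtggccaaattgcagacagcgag
Foxp1 start 1, chr6:99028299-99028448, minus strand: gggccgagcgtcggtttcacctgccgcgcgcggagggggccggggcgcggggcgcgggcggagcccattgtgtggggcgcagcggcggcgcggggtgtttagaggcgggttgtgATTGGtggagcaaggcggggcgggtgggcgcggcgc
Foxp1 start 2, chr6:99266516-99266665, minus strand: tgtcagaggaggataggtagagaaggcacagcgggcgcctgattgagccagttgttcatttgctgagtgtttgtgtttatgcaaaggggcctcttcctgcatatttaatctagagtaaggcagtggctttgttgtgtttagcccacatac
Foxp1 start 3, chr6:99520994-99521143, minus strand: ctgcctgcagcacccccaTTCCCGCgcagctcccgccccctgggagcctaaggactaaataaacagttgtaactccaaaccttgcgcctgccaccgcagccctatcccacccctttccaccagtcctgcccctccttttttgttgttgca

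Foxo1 and Foxk2 each held 2 CCAAT boxes, while Foxo3 and Foxn4 held none of the strings. The windows of Foxi3 and Foxj2, also called below, held none either. Over the 33 windows of the family a CCAAT box was in 33.3%, against 24.5% of all 32851 RefSeq windows of the same length. The E2F string was in 6.06% against 2.59%, and the forkhead string in 3.03%, at Foxa1 alone, against 1.80%. The cell cycle forms TTTGAA and TTCGAA were in none of the family's windows, against 9.07% and 0.667% of all. Foxm1 and Foxo4, also called below, had no window, so their promoters were not searched. The E-box was in 6.06% against 8.39%, the RBPJ string in 3.03% against 3.13% and the TATA box in 6.06% against 7.57%. CpG was counted over longer windows of 300 bases, 250 before and 50 from the start on. The ratio of observed to expected CpG had a median of 0.80 over the 18 windows of tested members and 0.62 over the 15 windows of members that were too low to test, against 0.57 over 21262 windows of protein-coding genes. The 3 Foxp1 starts ranged from 1.11 at start 1 to 0.28 at start 2 and 0.50 at start 3. They are numbered by rising coordinate, so on the minus strand start 3 is the most upstream. Reads per gene do not tell which start was used.

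The first comparison asked which forkhead genes differ between mutant and WT RGC fractions. With limma, 7 of the 23 tested members had an adjusted p under 0.05 over all 15277 tested genes, where 26% of all genes were called. Higher in mutant RGCs were 6 members, Foxi3, Foxm1, Foxn4, Foxo1, Foxo3 and Foxo4, where 13.7% of all genes were called higher. Lower was 1 member, Foxk2, where 12.3% of all genes were called lower. The share of members called in either direction, 30.4%, is near the background and is not a result about the family. The median log2 fold change of the 23 members was 0.08, against 0.00 for all tested genes, with 13 members above 0 and 10 below. Groups did not overlap in 11 members, 8 of them higher and 3 lower, or 47.8%. Over all genes 51.1% did not overlap, with 26.2% higher and 24.9% lower. Scaling by total counts changed the split to 7 higher, with Foxn3 called and Foxk2 no longer called (limma adjusted p = 0.0576). Over all genes that scaling called 2399 higher and 1903 lower. TMM factors gave 6 members higher and 2 lower, with Foxj2 called, and 1970 higher and 1991 lower over all genes.

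Leaving out 1 library changed the calls of this comparison. Without WT RGC library 1 or 2, or mutant RGC library 2 or 3, limma called 0 members, and between 3 and 9 genes of all those tested. At an unadjusted limma p under 0.05 these 4 leave-outs gave between 7 and 10 members of 23, beside 29.1% to 36.8% of all genes. Without mutant RGC library 1 it called 1 member, Foxn3, with 2284 of all genes called, or 14.99%. Without WT RGC library 3 it called 9 members, with 6479 of all genes called, or 42.3%: Foxd1, Foxi3, Foxj2, Foxk2, Foxm1, Foxn3, Foxn4, Foxo1 and Foxo4. The authors' deposited table called 4 of its 42 members with an adjusted p, or 9.52%, beside 11.9% of all its genes. They were Foxi3, Foxm1, Foxn4 and Foxo4, all higher.

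The second comparison asked how the cells left behind by the beads differ from the RGC fraction of the same mutants. It shares the 3 mutant RGC libraries with the first, so values of both comparisons are given side by side and not correlated. With limma, 3 of 23 members were called over 15179 tested genes, or 13.0%, beside a background of 17.1%. Foxm1 was higher in mutant non-RGC cells, where 5.07% of all genes were called higher, and Foxj2 and Foxp1 were lower, where 12% of all genes were called lower. The median log2 fold change of the members was -0.05, against 0.01 for all genes. Groups did not overlap in 9 members, 5 of them higher and 4 lower. Over all genes 37.7% did not overlap, with 17.1% higher and 20.6% lower. Total-count scaling gave 4 members higher and 2 lower, with 1474 genes higher and 1605 lower over all genes, where the authors' size factors gave 770 higher and 1822 lower.

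Calls of the second comparison also changed when 1 library was left out. Limma called 0 members without mutant non-RGC library 1 and without mutant RGC library 2 or 3, with between 2.89% and 4.11% of all genes called. At an unadjusted limma p under 0.05 these 3 leave-outs gave between 5 and 7 members of 23, beside 23.5% to 25.003% of all genes. Without mutant non-RGC library 2 it called Foxp1 alone of the members, where 8.21% of all genes were called. Without mutant non-RGC library 3 it called 5 members, Foxj1, Foxj2, Foxk2, Foxm1 and Foxp1, where 17.7% of all genes were called. Without mutant RGC library 1 the called members were Foxj2, Foxm1 and Foxp1, where 22.1% of all genes were called. The authors' deposited table called 1 of its 43 members with an adjusted p, Foxp1, or 2.33%, beside 6.47% of all its genes.

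**Figure D1:**
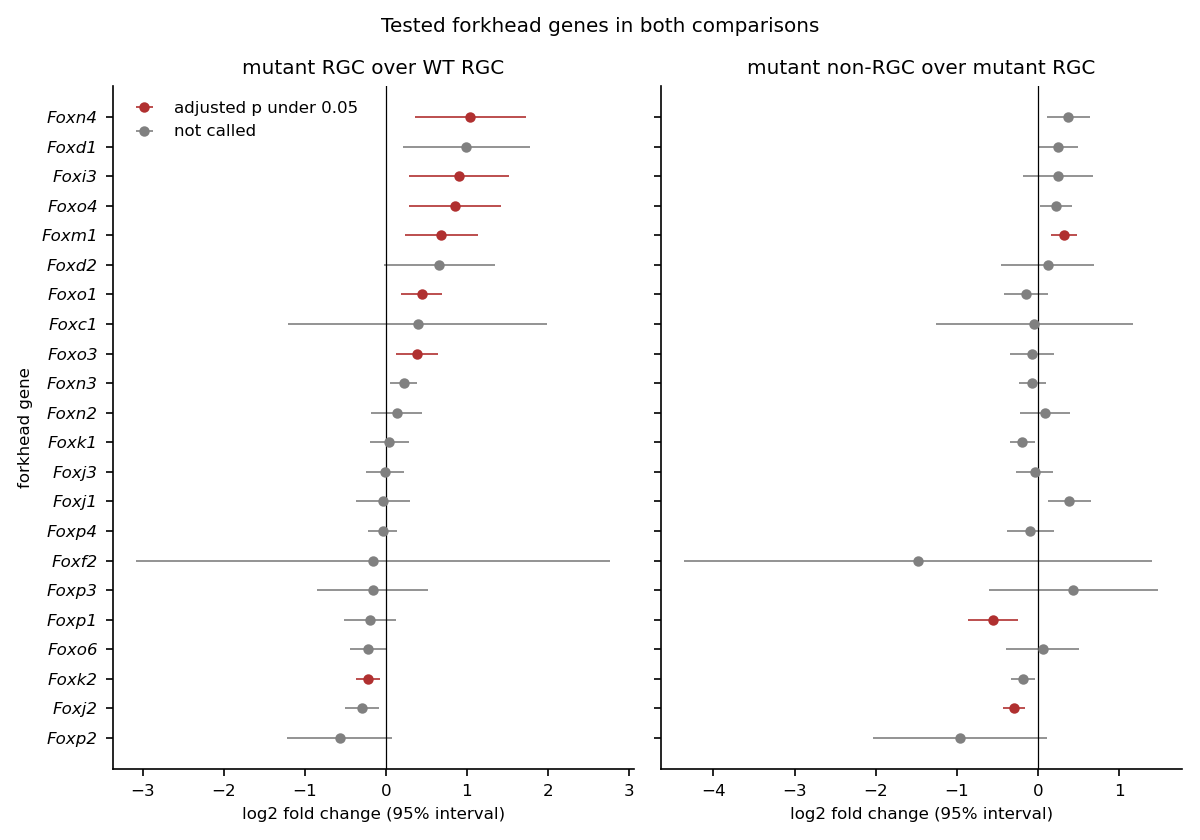
Log2 fold change (x axis, with 95% limma interval) of tested forkhead genes (y axis), mutant RGC over WT RGC at the left and mutant non-RGC over mutant RGC at the right. Red points passed limma's adjusted p of 0.05, 7 at the left and 3 at the right; Foxf2 has the widest interval in both panels.

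Foxm1 (chromosome 6, 128362994 to 128375886) is the cell cycle member and was the only one called higher in both comparisons. It was at 2565, 2593 and 2299 in mutant non-RGC libraries, 1957, 2038 and 1998 in mutant RGCs, and 1106, 1063 and 1751 in WT RGCs. The 3 groups did not overlap, the mutant RGC libraries lay close together, and WT library 3 was well above the other WT libraries. Mutant RGCs were 1.61-fold above WT RGCs (log2 fold change 0.69, SE 0.19, limma adjusted p = 0.0432), and mutant non-RGC cells were 1.24-fold above mutant RGCs (log2 fold change 0.31, SE 0.07, limma adjusted p = 0.0231). Over the 6 leave-outs the first log2 fold change lay between 0.55 and 0.92 and its adjusted p between 0.000981 and 0.152, under 0.05 only without WT library 3. The second lay between 0.28 and 0.37 with an adjusted p between 0.0163 and 0.0957, under 0.05 without mutant non-RGC library 3 and without mutant RGC library 1. Annotation places Tex52 over part of Foxm1, and the sources used here give no strand setting for the counting.

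Genes that Foxm1 works with moved in the same libraries. A list of 33 partners and targets, such as the mitotic kinases and centromere proteins that Foxm1 and the MuvB complex switch on, had 30 genes higher and 0 lower in mutant RGCs with limma, and its median log2 fold change was 1.03. The higher ones are 90.9% of the list, where 13.7% of all genes were called higher. No gene of the list was lower at an unadjusted limma p under 0.05 or with voom weights either. Calls of this and the other lists use all libraries of a comparison. Between genotypes, without WT library 1 or 2, or mutant RGC library 2 or 3, limma called between 3 and 9 of all genes. Cenpf, a kinetochore protein, averaged 3199 ± 115.7 in mutant RGCs and 1364 ± 426 in WT RGCs (SD, n = 3 each; limma adjusted p = 0.0237). Cenpe, a kinetochore motor, averaged 1942 ± 59.8 in mutant RGCs and 918 ± 258 in WT RGCs (limma adjusted p = 0.0238). Lin54, the DNA-binding subunit of MuvB, averaged 617 ± 21.4 in mutant RGCs and 398.7 ± 42.4 in WT RGCs (limma adjusted p = 0.0226). In mutant non-RGC cells 18 of the 33 (54.5%, where 5.07% of all genes were called higher) were higher and 0 lower against mutant RGCs with limma, with a median of 0.26 and 0 lower at an unadjusted p under 0.05 or with voom weights. Among them, the kinase Aurka averaged 880.1 ± 19.4 in mutant non-RGC cells and 684 ± 9.16 in mutant RGCs (limma adjusted p = 0.0126). Skp2, a ubiquitin ligase subunit, averaged 1237 ± 40.2 in mutant non-RGC cells and 942 ± 48.9 in mutant RGCs (limma adjusted p = 0.0113), and the centromeric histone Cenpa 978 ± 19.5 in mutant non-RGC cells and 744 ± 34.2 in mutant RGCs (limma adjusted p = 0.0135). The list's summed level in WT RGCs was 32032 in library 3 against 19306 and 20348 in libraries 1 and 2, and library 3 was the highest WT library for Foxm1 too. The proliferation markers given above moved with Foxm1 in the same way, and their part in the Foxm1 difference was not tested.

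**Figure D2:**
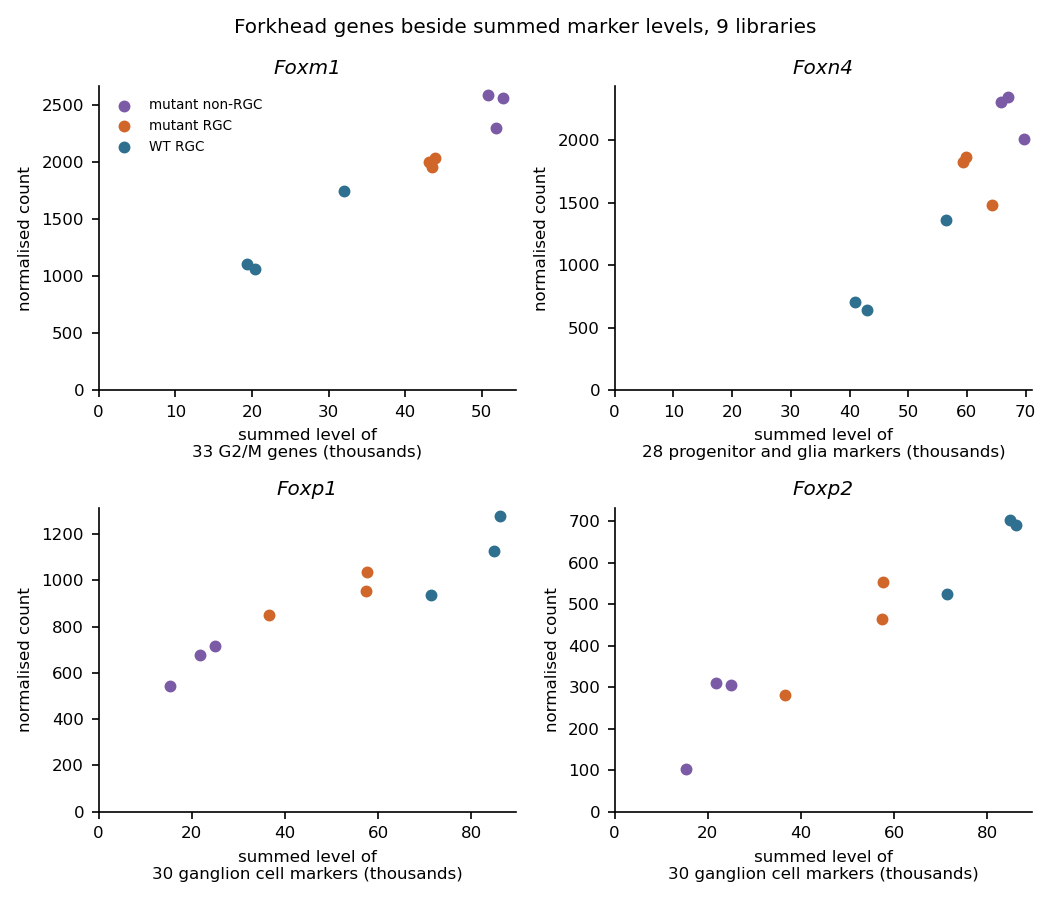
Normalised count of Foxm1, Foxn4, Foxp1 and Foxp2 (y axes) against the summed level of a marker list (x axes) in 9 libraries, 1 point each, coloured by group. Foxm1 and Foxn4 are lowest in WT libraries 1 and 2 and Foxp1 and Foxp2 are lowest in mutant non-RGC library 3, where the ganglion cell sum is 15396.

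Foxn4 (chromosome 5, 114254164 to 114274418), which makes progenitors competent to form amacrine and horizontal cells, had the largest log2 fold change of the tested members between genotypes. It was at 2310, 2351 and 2015 in mutant non-RGC libraries, 1485, 1826 and 1866 in mutant RGCs, and 706, 645 and 1362 in WT RGCs. Groups did not overlap, and WT library 3 was closer to mutant RGC library 1 than to the other WT libraries. Mutant RGCs were 2.06-fold above WT RGCs (log2 fold change 1.04, SE 0.29, limma adjusted p = 0.0420), and mutant non-RGC cells were 1.29-fold above mutant RGCs without passing the test (log2 fold change 0.37, SE 0.11, limma adjusted p = 0.0644). Leaving out 1 library kept the difference between genotypes at 0.84 to 1.38, with an adjusted p of 0.00218 to 0.149, under 0.05 only without WT library 3. The summed level of 28 markers of progenitors and Müller glia was 65734 to 69649 in mutant non-RGC libraries, 59293 to 64291 in mutant RGCs, and 40946, 42976 and 56380 in WT libraries 1, 2 and 3. How much of the Foxn4 difference goes with these cells was not tested.

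The list of 30 genes around Foxn4, Notch ligands and the factors of amacrine and horizontal cells, had 14 higher and 1 lower in mutant RGCs, with a median log2 fold change of 0.56. These are 46.7% and 3.33% of the list, where 13.7% of all genes were called higher and 12.3% lower. Lhx1, a homeodomain factor of horizontal cells, averaged 154 ± 21.8 in mutant RGCs and 58.8 ± 4.18 in WT RGCs (limma adjusted p = 0.0215). Tfap2b, a factor of amacrine and horizontal cells, averaged 4261 ± 626 in mutant RGCs and 2592 ± 221 in WT RGCs (limma adjusted p = 0.0225). Ptprk, a receptor phosphatase, averaged 1240.3 ± 69.5 in mutant RGCs and 721 ± 96.9 in WT RGCs (limma adjusted p = 0.0215). Between the mutant fractions 1 of the 30 was called, the Notch ligand Dll1, at 1851 ± 45.3 in mutant non-RGC cells and 1526 ± 115.5 in mutant RGCs (limma adjusted p = 0.0274), with a list median of 0.12. That is 3.33% of the list called higher, where 5.07% of all genes were.

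Foxd1 (chromosome 13, 98354245 to 98356705), a temporal factor needed in mice for the uncrossed projection, was at 722, 908 and 788 in mutant non-RGC libraries, 632, 684 and 715 in mutant RGCs, and 259.5, 262 and 612.5 in WT RGCs. WT libraries 1 and 2 were far below all other libraries, and WT library 3 lay just under the lowest mutant RGC library. The groups did not overlap, but with a limma adjusted p of 0.0636 the log2 fold change of 1.00 between genotypes (SE 0.33) was not called. Without WT library 3 it was 1.41 with an adjusted p of 0.000960. Foxd2, a near relative of Foxd1, was at 52.7, 50.4 and 40.9 in mutant RGCs against 24.6, 44.2 and 26.3 in WT RGCs, which overlapped (log2 fold change 0.66, SE 0.29, limma adjusted p = 0.122).

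Of 34 genes of retinal axes and axon guidance, 8 were higher and 1 lower in mutant RGCs (23.5% and 2.94%, where all genes had 13.7% and 12.3%), with a median log2 fold change of 0.11. Tbx3, a dorsal factor, averaged 1997 ± 247 in mutant RGCs and 1182 ± 129 in WT RGCs (limma adjusted p = 0.0215). Aldh1a1, the dorsal enzyme of retinoic acid synthesis, averaged 1031 ± 103.6 in mutant RGCs and 449 ± 188 in WT RGCs (limma adjusted p = 0.0268), and the zinc finger factor Zic5 averaged 453 ± 17.0 in mutant RGCs and 243 ± 61.1 in WT RGCs (limma adjusted p = 0.0246). Between the mutant fractions 3 of 33 tested were higher and 7 lower (9.09% and 21.2%, where all genes had 5.07% and 12%). The lower ones included Plxna1, a semaphorin receptor, at 2329 ± 140.3 in mutant non-RGC cells and 3670 ± 284 in mutant RGCs (limma adjusted p = 0.00711), and the ephrin receptors Epha4 and Epha5 (limma adjusted p = 0.0113 for each).

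**Figure D3:**
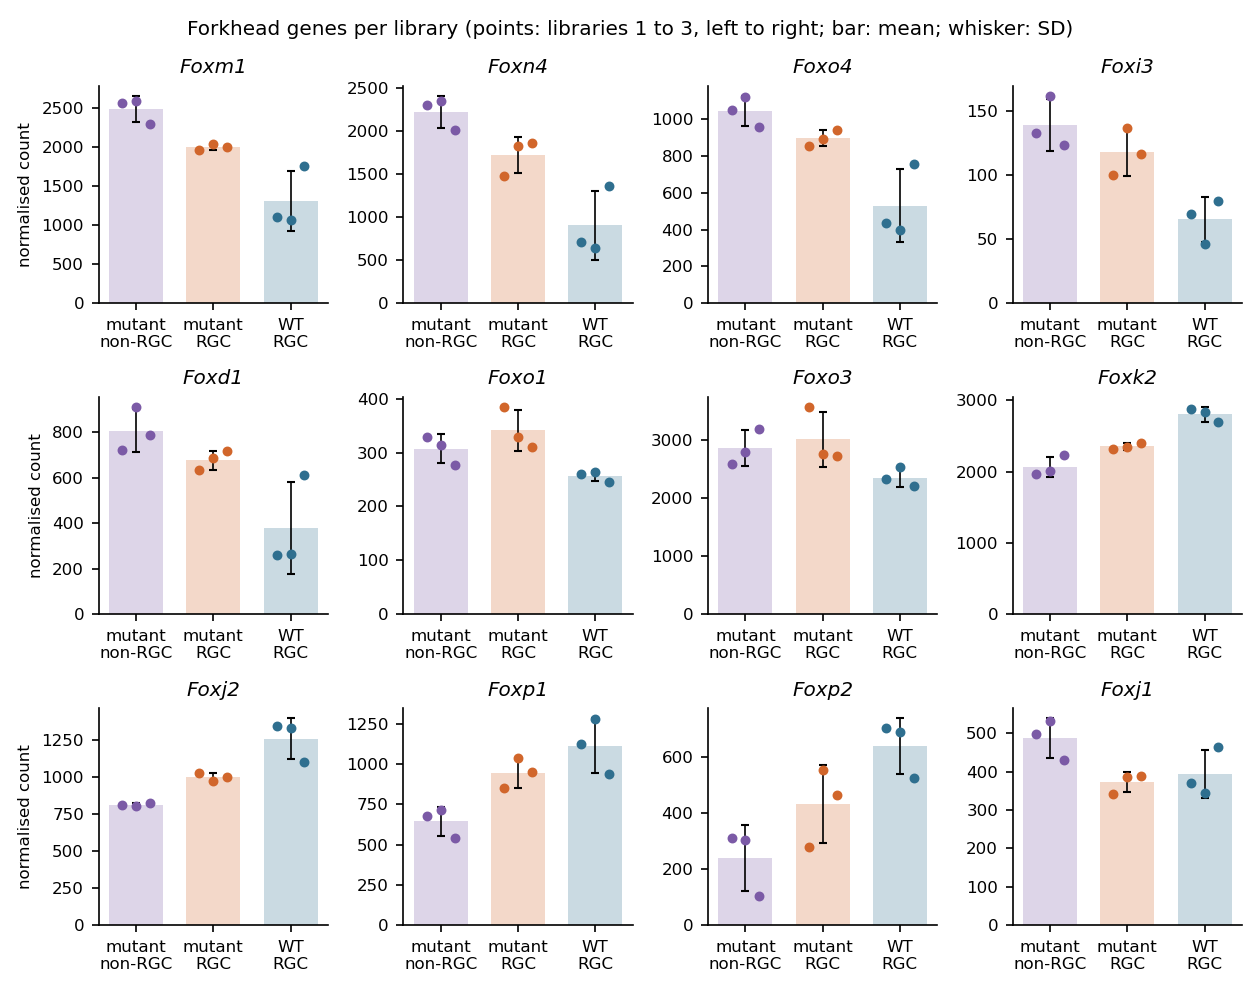
Normalised counts (y axes) of 12 forkhead genes in mutant non-RGC, mutant RGC and WT RGC libraries (x axes). Points are libraries 1 to 3 from left to right, bars are means and whiskers are SDs. WT library 3 is the highest WT library in Foxm1, Foxn4, Foxo4, Foxd1, Foxi3 and Foxj1. It is the lowest in Foxo1, Foxo3, Foxk2, Foxj2, Foxp1 and Foxp2.

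FoxO proteins are held in the cytoplasm when insulin and growth factor signals activate Akt, and enter the nucleus when those signals fall. Of the 4 FoxO genes, 3 were called higher in mutant RGCs with limma, where 13.7% of all genes were. The authors' deposited table called only Foxo4 of these. Foxo4 (chromosome X, 101254261 to 101260873) was at 1049.5, 1123 and 961 in mutant non-RGC libraries, 857, 893 and 943 in mutant RGCs, and 435, 399.9 and 758 in WT RGCs. WT library 3 again stood above WT libraries 1 and 2 and under every mutant RGC library, and no groups overlapped. The log2 fold change between genotypes was 0.85 (SE 0.24, limma adjusted p = 0.0438), and between fractions it was 0.22 (SE 0.08), which was not called (limma adjusted p = 0.125). With 1 library left out the first lay between 0.67 and 1.14 with an adjusted p between 0.00119 and 0.153, under 0.05 only without WT library 3.

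Foxo1 and Foxo3 were spread differently over the libraries. Foxo1 (chromosome 3, 52268337 to 52350109) was at 329, 315 and 277 in mutant non-RGC libraries, 384, 329 and 309.5 in mutant RGCs, and 259.5, 263 and 245 in WT RGCs. The 3 WT libraries had an SD of 9.33, the mutant fractions overlapped, and mutant RGC library 1 was highest. The log2 fold change between genotypes was 0.44 (SE 0.11, limma adjusted p = 0.0333). It was 0.37 without mutant RGC library 1 (adjusted p = 0.0582), the only leave-out with a call was that of WT library 3, and the adjusted p lay between 0.0302 and 0.122. Foxo3 (chromosome 10, 42181845 to 42276695) was at 2589, 2784 and 3198 in mutant non-RGC libraries, 3562, 2751 and 2727 in mutant RGCs, and 2326, 2530 and 2202 in WT RGCs. Here too mutant RGC library 1 stood above the rest and the WT group lay below both mutant groups. The log2 fold change between genotypes was 0.38 (SE 0.11, limma adjusted p = 0.0448), and 0.27 without mutant RGC library 1 (adjusted p = 0.0552). No leave-out kept the Foxo3 call, with adjusted p between 0.0552 and 0.148.

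Mutant RGC library 1 also held more RNA of cells that are not retinal neurons. The sum of 19 endothelial markers was 6153 to 6987 in mutant non-RGC libraries, 9295, 5437 and 5717 in mutant RGC libraries 1, 2 and 3, and 3900 to 5258 in WT RGCs. The sum of 16 microglia markers was 314 to 400 in mutant non-RGC libraries, 9387, 2882 and 2577 in mutant RGC libraries 1, 2 and 3, and 4104 to 5924 in WT RGCs. No marker of either list was at 0 in all 9 libraries. Their part in the Foxo1 and Foxo3 values of that library was not tested. Foxo6, a FoxO factor found mainly in the brain, went the other way without passing the test, at 536, 478 and 549 in mutant RGCs against 606, 577 and 676 in WT RGCs (log2 fold change -0.22, SE 0.10, limma adjusted p = 0.126).

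Of 32 kinases and adaptors that control FoxO proteins, 4 were higher and 6 lower in mutant RGCs, with a median log2 fold change of -0.10. These shares, 12.5% and 18.8%, are near those of all genes, 13.7% and 12.3%, and are not a result about the list. Igf1r, the receptor for insulin-like growth factor, averaged 2565 ± 149 in mutant RGCs and 1852 ± 173 in WT RGCs (limma adjusted p = 0.0238). Stk4, a kinase that activates FoxO proteins under stress, averaged 1401 ± 37.4 in mutant RGCs and 1163 ± 28.6 in WT RGCs (limma adjusted p = 0.0245), while Ywhah, a 14-3-3 protein, averaged 1123 ± 56.0 in mutant RGCs and 1490.5 ± 44.6 in WT RGCs (limma adjusted p = 0.0250). In mutant non-RGC cells 1 was higher and 8 lower against mutant RGCs (3.13% and 25%, where all genes had 5.07% and 12%). The lower ones included the Jun kinases Mapk10 at 480 ± 21.7 in mutant non-RGC cells and 1139 ± 235 in mutant RGCs (limma adjusted p = 0.00759), Mapk9 (limma adjusted p = 0.0123) and Mapk8 (limma adjusted p = 0.0170).

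Of 36 genes known from other cells as FoxO targets, 31 were tested. Of these 5 were higher and 8 lower in mutant RGCs (16.1% and 25.8%, where all genes had 13.7% and 12.3%), with a median log2 fold change of 0.00. Fbxo32 (atrogin-1), a ubiquitin ligase subunit of muscle wasting, averaged 623 ± 43.7 in mutant RGCs and 372 ± 37.0 in WT RGCs (limma adjusted p = 0.0215). Sesn3, a sestrin, averaged 899.5 ± 62.1 in mutant RGCs and 666 ± 51.1 in WT RGCs (limma adjusted p = 0.0244). The stress gene Gadd45b was lower, at 108 ± 6.30 in mutant RGCs and 294 ± 21.6 in WT RGCs (limma adjusted p = 0.0127). Between the fractions 1 of 31 was called, 3.23% where 5.07% of all genes were called higher: Gadd45a, at 568 ± 32.4 in mutant non-RGC cells and 449.7 ± 19.7 in mutant RGCs (limma adjusted p = 0.0387).

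FoxP factors repress transcription as dimers and mark neuron types across the brain. Foxp1 (chromosome 6, 98925342 to 99522746) was at 678, 716 and 544 in mutant non-RGC libraries, 851, 1037 and 954 in mutant RGCs, and 1127, 1279 and 939 in WT RGCs. Every mutant non-RGC library lay below every RGC library, and the RGC groups overlapped through WT library 3. Foxp1 fell by 0.56 on the log2 scale in mutant non-RGC cells against mutant RGCs (SE 0.13, limma adjusted p = 0.0277), and its log2 fold change between genotypes was -0.19 (SE 0.14, limma adjusted p = 0.308). Over the 6 leave-outs the difference between fractions lay between -0.64 and -0.44, with an adjusted p between 0.0152 and 0.106, under 0.05 without mutant RGC library 1 and without mutant non-RGC library 2 or 3. Foxp2 (chromosome 6, 14901349 to 15441977), known from speech disorders in people and found in subsets of ganglion cells in mice, was at 310, 305 and 103 in mutant non-RGC libraries, 280, 554 and 465 in mutant RGCs, and 703, 690 and 524 in WT RGCs. Mutant RGC library 1 lay among the non-RGC libraries. Neither difference passed: the log2 fold change was -0.96 between fractions (SE 0.46, limma adjusted p = 0.200) and -0.57 between genotypes (SE 0.27, limma adjusted p = 0.149). Without that library they were -1.26 (limma adjusted p = 0.106) and -0.27 (limma adjusted p = 0.255), still short of the threshold.

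The ganglion cell sum was lowest in the mutant non-RGC group and highest in WT RGCs, as were the means of Foxp1 and Foxp2. It was 21756, 24872 and 15396 in mutant non-RGC libraries 1, 2 and 3, 36525, 57501 and 57309 in mutant RGC libraries, and 84812, 86028 and 71256 in WT RGC libraries. The lowest Foxp1 and Foxp2 values of each group came from its library with the lowest ganglion cell sum: library 3 of the mutant non-RGC group, library 1 of the mutant RGCs and library 3 of the WT RGCs. Across groups, single libraries did not all follow the sum. Foxp2 was lower in mutant RGC library 1 than in mutant non-RGC libraries 1 and 2. Foxp1 was lower in WT library 3 than in mutant RGC libraries 2 and 3. The part of the ganglion cell sum in the Foxp1 difference was not tested. Foxp4 was within 1103 to 1522 in all 9 libraries and Foxp3, the factor of regulatory T cells, within 8.2 to 23.2; neither was called in either comparison.

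Among 25 tested partners, regulators and targets of FoxP factors, 2 were higher and 5 lower in mutant RGCs (median log2 fold change -0.24), and 1 was higher and 10 lower in mutant non-RGC cells against mutant RGCs (median -0.48). Between genotypes these are 8% and 20% of the list, where all genes had 13.7% and 12.3%, and between fractions 4% and 40%, where all genes had 5.07% and 12%. Cntnap2, an adhesion protein whose gene FOXP2 binds in human cells, averaged 578 ± 12.6 in mutant non-RGC cells and 1161 ± 234 in mutant RGCs (limma adjusted p = 0.0103). Satb1 averaged 1644 ± 44.1 in mutant non-RGC cells and 2294 ± 28.5 in mutant RGCs (limma adjusted p = 0.00634). Irx3 was lower, at 428 ± 113 in mutant RGCs against 812 ± 102 in WT RGCs (limma adjusted p = 0.0336), and the corepressor Ctbp2 was higher, at 1855 ± 287 in mutant RGCs against 1330 ± 144 in WT RGCs (limma adjusted p = 0.0316).

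FoxK factors bring the SIN3 corepressor and the BAP1 deubiquitinase to DNA. Foxk2 (chromosome 11, 121259987 to 121309900) was at 1973, 2004 and 2233 in mutant non-RGC libraries, 2315, 2346 and 2404 in mutant RGCs, and 2884, 2833 and 2690.1 in WT RGCs. The groups were narrow and stepped without overlap. Foxk2 fell by 0.22 on the log2 scale in mutant RGCs against WT RGCs (SE 0.06, limma adjusted p = 0.0457), and the difference of -0.19 between fractions (SE 0.06) fell short (limma adjusted p = 0.0885). With 1 library left out the difference between genotypes lay between -0.24 and -0.19, with an adjusted p between 0.0221 and 0.165, under 0.05 only without WT library 3. Foxk1, its close relative, was at 1215, 1279 and 1149.8 in mutant non-RGC libraries, 1368, 1393 and 1407 in mutant RGCs, and 1469, 1502 and 1188 in WT RGCs. It was below all mutant RGC libraries in the mutant non-RGC group (log2 fold change -0.20, SE 0.07, limma adjusted p = 0.0829), and the genotypes overlapped.

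Their 19 partners had 2 genes higher and 4 lower in mutant RGCs, and 2 higher and 2 lower in mutant non-RGC cells. Between genotypes these are 10.5% and 21.1%, where all genes had 13.7% and 12.3%, and between fractions 10.5% each way, where all genes had 5.07% and 12%. Sin3a averaged 1961 ± 32.0 in mutant RGCs and 1545 ± 43.9 in WT RGCs (limma adjusted p = 0.0226), while its relative Sin3b averaged 1768 ± 70.9 in mutant RGCs and 2164 ± 126 in WT RGCs (limma adjusted p = 0.0360). Dvl1, a Wnt adaptor that FoxK proteins carry to the nucleus, averaged 1892 ± 202 in mutant non-RGC cells, 1307 ± 147 in mutant RGCs and 2103 ± 227 in WT RGCs (limma adjusted p = 0.0215 between fractions and 0.0245 between genotypes). Asxl3 and Mbd5, partners of BAP1, were lower in mutant non-RGC cells than in mutant RGCs (limma adjusted p = 0.0218 for Asxl3 and 0.0468 for Mbd5).

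Foxj2 (chromosome 6, 122820184 to 122845366), a broadly expressed activator, was at 812, 802 and 828 in mutant non-RGC libraries, 1029, 971.5 and 1004 in mutant RGCs, and 1347, 1331 and 1103 in WT RGCs. The groups stepped upward without overlap and the mutant groups were narrow. Foxj2 fell by 0.30 on the log2 scale in mutant non-RGC cells against mutant RGCs (SE 0.06, limma adjusted p = 0.0175). Its difference of -0.29 between genotypes (SE 0.09) fell short (limma adjusted p = 0.0527), and without WT library 3 it was -0.38 with an adjusted p of 0.00437. Over the 6 leave-outs the difference between fractions lay between -0.31 and -0.29, with an adjusted p between 0.0199 and 0.0892, under 0.05 without mutant non-RGC library 3 and without mutant RGC library 1. Foxj3 was within 1023 to 1302 in all libraries, with log2 fold changes of -0.01 between genotypes and -0.05 between fractions.

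Foxj1 (chromosome 11, 116330704 to 116335499) switches on the genes of motile cilia. It was at 499, 533 and 431 in mutant non-RGC libraries, 342, 387 and 388 in mutant RGCs, and 371.5, 345 and 465 in WT RGCs. Every mutant non-RGC library was above the mutant RGCs, by 0.38 on the log2 scale (SE 0.11), short of the threshold (limma adjusted p = 0.0599), and the genotypes overlapped. Of 22 tested motile cilia genes 3 were higher and 2 lower in mutant RGCs, and 2 higher and 1 lower between fractions. The first shares, 13.6% and 9.09%, are near those of all genes, 13.7% and 12.3%, and the second are 9.09% and 4.55%, where all genes had 5.07% and 12%. Rsph1, a radial spoke protein, averaged 223 ± 55.3 in mutant RGCs and 75.0 ± 28.5 in WT RGCs (limma adjusted p = 0.0258), while Tppp3, a microtubule protein, averaged 711 ± 117 in mutant RGCs and 1215 ± 35.7 in WT RGCs (limma adjusted p = 0.0245). Ccdc39, which fixes the spacing of the ciliary axoneme, averaged 391.5 ± 74.5 in mutant non-RGC cells and 206 ± 26.8 in mutant RGCs (limma adjusted p = 0.0156), and Spag6, of the central pair, 19.7 ± 0.734 in mutant non-RGC cells and 57.8 ± 22.2 in mutant RGCs (limma adjusted p = 0.0346). Myb, a factor of dividing and of multiciliated cells, was higher in both comparisons (limma adjusted p = 0.0325 between genotypes and 0.0214 between fractions).

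Foxi3 (chromosome 6, 70956606 to 70961066), known in mice for the inner ear, teeth and hair, was low but present in every library. It was at 133, 162 and 123 in mutant non-RGC libraries, 99.9, 137 and 117 in mutant RGCs, and 69.8, 46.3 and 80.0 in WT RGCs. All WT libraries lay below all mutant libraries, and the mutant fractions overlapped. The log2 fold change was 0.90 between genotypes (SE 0.26, limma adjusted p = 0.0467) and 0.24 between fractions (SE 0.18, limma adjusted p = 0.425). With 1 library left out the first lay between 0.67 and 1.06, with an adjusted p between 0.0255 and 0.133, under 0.05 only without WT library 3. Of the remaining relatives, Foxn3, a checkpoint regulator, was at 996, 1060.2 and 1035 in mutant RGCs against 874, 925 and 915 in WT RGCs, without overlap but short of the test (log2 fold change 0.22, SE 0.07, limma adjusted p = 0.0547). Without mutant RGC library 1 and without WT library 3 the Foxn3 difference passed, with a smallest adjusted p of 0.0416. Foxn2 was within 474 to 669.9 in all libraries and called in neither comparison.

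Foxc1 and Foxf2, genes of mesenchyme and vessels, were tested and called in neither comparison. Foxc1 (chromosome 13, 31806646 to 31810635), needed for the anterior segment of the eye, was at 42.3, 69.7 and 41.1 in mutant non-RGC libraries, 123, 32.7 and 33.1 in mutant RGCs, and 30.5, 88.4 and 23.0 in WT RGCs. Foxf2, a factor of brain pericytes that lies in the same cluster on chromosome 13, was at 0.962, 1.94 and 7.20 in mutant non-RGC libraries, 71.2, 3.73 and 1.95 in mutant RGCs, and 10.8, 22.1 and 4.38 in WT RGCs. Both were highest in mutant RGC library 1 and next highest in WT library 2, and their groups overlapped. Their log2 fold changes between genotypes were 0.39 for Foxc1 (SE 0.67) and -0.15 for Foxf2 (SE 1.23). Without mutant RGC library 1 the Foxc1 value was -0.22, and Foxf2 fell below the minimum for testing in both comparisons.

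The 21 members too low to test had 398 reads in all, of which 110 were in mutant RGC library 1 and 72 in WT library 2. The next highest library was mutant non-RGC library 2, with 60 reads. Foxc2, a lymphatic factor, had 21, 1 and 4 reads in mutant RGC libraries and 2, 20 and 3 in WT RGCs, against 1, 2 and 2 in mutant non-RGC libraries. Foxl2, a factor of the eyelid and ovary, had 0, 11 and 1 reads in mutant non-RGC libraries, 20, 0 and 1 in mutant RGCs and 3, 13 and 1 in WT RGCs. Foxs1, found in pericytes, had 4, 1 and 0 reads in mutant non-RGC libraries, 15, 0 and 1 in mutant RGCs and 1, 6 and 0 in WT RGCs. Foxq1, the third member of the chromosome 13 cluster, had 2, 3 and 0 reads in mutant non-RGC libraries, 27, 1 and 1 in mutant RGCs and 1, 5 and 7 in WT RGCs. In these 4 genes mutant RGC library 1 had the most reads. As a normalised count Foxc2 was 19.4 there and 21 in WT library 2. Reads elsewhere were few apart from WT library 2 and, for Foxl2, mutant non-RGC library 2. For Foxq1, WT library 3 had 7 reads and WT library 2 had 5.

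The sum of 19 markers of pericytes and mesenchyme was 1359, 7833 and 1651 in mutant non-RGC libraries, 11183, 1350 and 4699 in mutant RGCs, and 6092, 17994 and 1305 in WT RGCs, so it was highest in WT library 2 and mutant RGC library 1. No marker was at 0 in all 9 libraries, and 0 of its 17 tested markers were called between genotypes with limma, 1 at an unadjusted p under 0.05 and 0 with voom weights. Foxd3, a neural crest factor, had 3, 12 and 0 reads in mutant non-RGC libraries, 0, 2 and 8 in mutant RGCs and 2, 20 and 0 in WT RGCs, with its highest values in WT library 2 and mutant non-RGC library 2. Foxf1, a mesenchyme factor in the chromosome 8 cluster with Foxc2 and Foxl1, had 9, 11 and 4 reads in mutant non-RGC libraries, 7, 7 and 2 in mutant RGCs and 2, 0 and 2 in WT RGCs. Foxa1, a factor that opens chromatin, had 2 to 10 reads in each library. The remaining 14 members had at most 6 reads in any library: Foxa2, Foxa3, Foxb1, Foxb2, Foxd4, Foxe1, Foxe3, Foxh1, Foxi1, Foxi2, Foxl1, Foxn1, Foxr1 and Foxr2. Foxb1 was at 0 in all 9. Foxe3, needed in the lens, had 5 reads in mutant RGC library 1 and at most 1 elsewhere. Foxh1 overlaps Kifc2, which had 264 to 1258 reads.

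**Figure D4:**
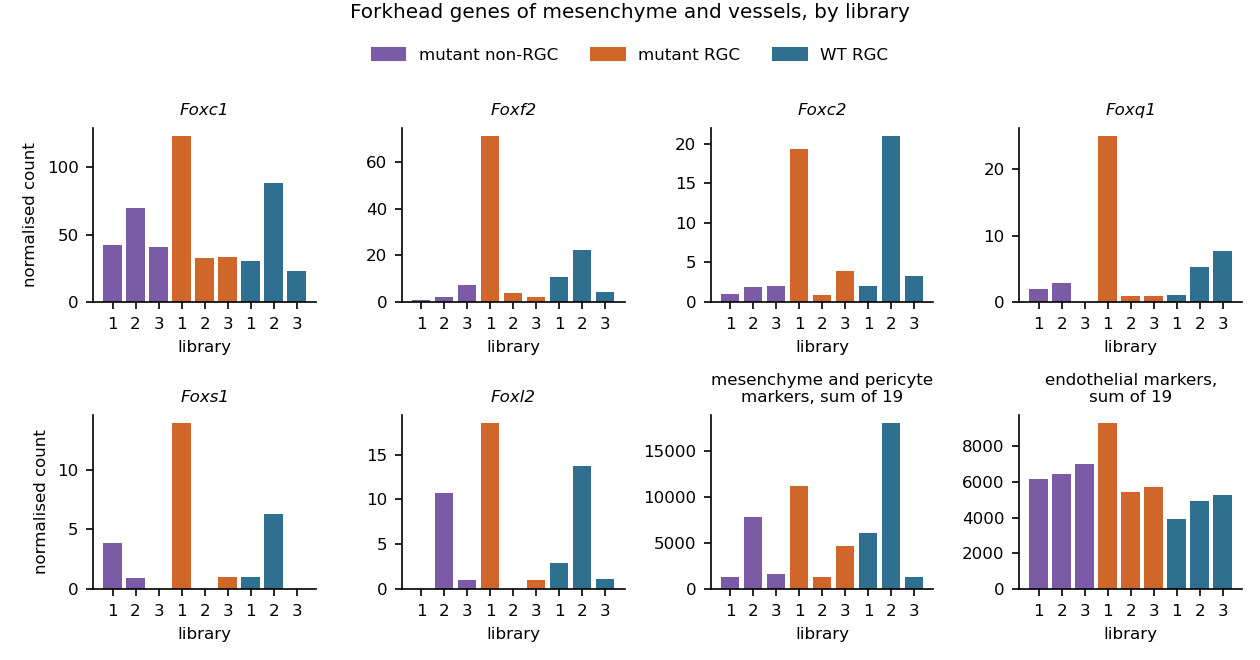
Normalised counts (y axes) of 6 forkhead genes of mesenchyme and vessels and of summed markers in libraries 1 to 3 of each group (x axes), 1 bar per library. Mutant RGC library 1 and WT library 2 hold the highest bars in Foxc1, Foxf2, Foxc2, Foxs1, Foxl2 and the pericyte and mesenchyme markers; in Foxq1 the second highest is WT library 3.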

How the data were processed

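The series' design text gives poly(A) libraries and single-end sequencing of 75 cycles. The submitters' processing notes name STAR 2.3, featureCounts, DESeq and FastQC and the build mm10, with no settings. Other RNA libraries and 12 chromatin samples of the 30 in the series were not analysed here. Per the file headers, the 2 deposited tables give the authors' mean normalised counts per condition (signal). They also hold the authors' fold change, a ratio of B over A, and its deposited log2. The last columns are the authors' deposited p-value, raw and adjusted. The table names record primary alignments with duplicates removed, which limits counts of short abundant transcripts.

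Whole read counts of single libraries were solved from the deposited means, since dividing by size factors leaves steps of 1 read, for at least 99.979% of genes above 0, to a tolerance of 1e-09, and the mutant RGC counts from both tables were identical for all 23953 genes compared. Conditions A and B were settled by genes with a mean of 0 (0 mismatches, against at least 3098 for other pairings). The filter kept genes averaging 10 or more over 6 libraries. They were tested with limma 3.58.1 (R 4.3.3) with a variance trend on log2(normalised count + 1), using the authors' size factors, and called where the Benjamini-Hochberg adjusted value over all tested genes was under 0.05. A fold change on this scale understates the change of low genes. Printed levels use median-of-ratios factors over the 9 libraries. Library pairs within a group differed by a mean chi-square per gene of 1.89 to 21.1, so none held the same counts. The closest pairs were mutant RGC libraries 2 and 3 (1.89), mutant non-RGC libraries 1 and 2 (3.72) and WT RGC libraries 1 and 2 (4.97). Whether libraries of a pair came from the same pool of cells cannot be told from these values. The scripts were tested on simulated data.

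Tested members are named, as are up to 3 called genes of each list by smallest adjusted p, passing over genes an earlier list named. A few of these are not reported here, although the counts include them. The members and lists were chosen with earlier results of these data known, so their counts are set beside all genes and not tested as sets. Alternatives were other pseudocounts, filters and size factors, voom weights, the authors' adjusted p, and each library left out. Coordinates and promoter windows are those of RefSeq on GRCm38.p6, whose primary chromosomes are those of mm10.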

Additional observations from a re-analysis of the deposited data

How the results depend on the processing

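Between genotypes, where 7 members and 3971 of all genes were called, no filter on low values gave 4 members and 3098 of all genes. The authors' adjusted p gave 4 members and 3024 of all genes, and non-overlap of the groups 11 and 7805. With 1 library left out the count of members ranged from 0 to 9, and over all genes from 3 to 6479. Between fractions, where 3 members and 2592 of all genes were called, upper quartile factors gave 5 and 2779. Total counts gave 6 and 3079, the authors' adjusted p 1 and 1635, and non-overlap 9 and 5725. An adjusted p under 0.1 gave 7 members between fractions and 10 between genotypes. No count over all genes was taken at that threshold, so neither number can be read against a background. Over the leave-outs between fractions the count of members ranged from 0 to 5, and over all genes from 438 to 3324. Fewer samples enter each leave-out; the cause of the other changes was not tested. Other pseudocounts and TMM factors kept both counts within 1.5 times, as did voom weights and a minimum mean of 50, and no scaling moved the median of all genes by over 0.1 on the log2 scale.

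No member changed direction under these alternatives in a comparison that called it. Members that were not called did. Under total counts the log2 fold change between genotypes became 0.011 for Foxj1, 0.037 for Foxj3 and 0.0071 for Foxp4, and that between fractions 0.017 for Foxc1 and 0.021 for Foxj3. Foxf2 between genotypes was 0.082 with a pseudocount of 5 and 1.05 in the authors' deposited table. Without mutant RGC library 1 Foxf2 was not tested, so its range below covers 5 leave-outs. Over the leave-outs, log2 fold changes between genotypes ranged from -0.22 to 0.96 for Foxc1, -0.69 to 0.73 for Foxf2, -0.13 to 0.092 for Foxj1, -0.087 to 0.060 for Foxj3, -0.059 to 0.10 for Foxk1, -0.0039 to 0.21 for Foxn2 and -0.090 to 0.0042 for Foxp4. Between fractions they ranged from -0.36 to 0.56 for Foxc1, -0.051 to 0.29 for Foxd2, -0.12 to 0.037 for Foxj3, -0.15 to 0.042 for Foxo3 and -0.17 to 0.21 for Foxo6.

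The planned count-model tests (edgeR and DESeq2) were not run on the counts solved from the deposited means. Voom weights were fitted to log values of those counts. The authors' adjusted p, from DESeq by the submitters' notes, was the one alternative from a count model. No paired analysis was possible because the recovered libraries carry no replicate numbers. Members with few reads, such as Foxf2 and Foxp3, limit what this depth can show.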

Other observations

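Markers of other retinal cells moved between the same libraries as the forkhead genes, and their part in any forkhead difference was not tested. The amacrine and horizontal list shares Lhx1 and Tfap2b with the Foxn4 list and Ebf3 with the ganglion cell list. With limma, 12 of 23 tested amacrine and horizontal cell markers were higher and 3 lower in mutant RGCs (52.2% and 13.0%, where 13.7% of all genes were called higher and 12.3% lower), among the higher ones the enzymes of GABA synthesis Gad1, at 836 ± 49.3 in mutant RGCs and 566 ± 15.4 in WT RGCs, and Gad2, at 1214 ± 78.8 in mutant RGCs and 692 ± 129 in WT RGCs (SD, n = 3 each). Of 21 photoreceptor and bipolar cell markers 8 (38.1%) were higher, including Thrb, the thyroid hormone receptor of cones, at 876 ± 46.2 in mutant RGCs and 338 ± 118 in WT RGCs. Of 28 progenitor and Müller glia markers 9 (32.1%) were higher in mutant RGCs, and of 30 ganglion cell markers 12 (40%) were lower. Between the mutant fractions 19 of the 30 ganglion cell markers were lower in non-RGC cells, as were 15 of 16 microglia markers, or 63.3% and 93.8% where 12% of all genes were called lower.

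Genes that respond to activity and to tissue handling differed as well. Of 26 immediate early and tissue handling genes, 1 was higher and 8 lower in mutant RGCs against WT RGCs, or 3.85% and 30.8%. Over all genes 13.7% were called higher and 12.3% lower. Npas4, induced by neuronal activity, averaged 176 ± 42.6 in mutant non-RGC cells, 364 ± 114 in mutant RGCs and 2025 ± 281 in WT RGCs, and Nr4a1 averaged 728 ± 79.3 in mutant non-RGC cells, 866 ± 172 in mutant RGCs and 2794 ± 424 in WT RGCs.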
